A study of Mus musculus with 8 samples.

Results

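The nuclear-encoded subunits of the oxidative phosphorylation (OXPHOS) system were examined in RNA-seq counts from mouse outflow tracts, the segment through which blood leaves the embryonic ventricles. Members were taken by gene name, with the symbol stems Nduf, Sdh, Uqcr, Cox4 to Cox8 and Atp5, without pseudogenes and mitochondrially encoded genes, and with at least 100 raw counts summed over the 8 libraries. The name rule matched 83 symbols and the count minimum left 80 of the 33495 genes in the table, with 36 named for complex I, 4 for complex II, 7 for complex III, 16 for complex IV and 17 for complex V. The 4 mutant samples carried an AHF-conditional Mef2c knockout, a deletion confined to the anterior heart field, the progenitors of the outflow tract and right ventricle. The other 4 samples were wild type, and all 8 were on the CD-1 strain background. The sources used here do not give the driver of the deletion, the embryonic stage, the number of embryos per sample or the litters. P-values therefore measure the spread between these 8 samples, part of which may be technical. Cells of the outflow tract that do not come from the anterior heart field keep Mef2c, and the libraries are of whole tissue. Replicates 1 and 2 of each group were sequenced on lane 1 and replicates 3 and 4 on lane 2, per the labels.

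Oxidative phosphorylation takes electrons from NADH at complex I and from succinate at complex II, passes them through complexes III and IV to oxygen, and uses the proton gradient built on the way to drive the ATP synthase, complex V. Most subunits are encoded in the nucleus and imported, while a small set is encoded in the mitochondrial genome. Heart muscle depends on this pathway for most of its ATP after birth, and several complex IV subunits exist in a ubiquitous form and a heart and skeletal muscle form, so the set carries both a general mitochondrial and a muscle signature.

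Total counts ran from 7697492 to 10006137 in mutant libraries and from 7138732 to 11012246 in wild-type libraries. The members took 1.02%, 0.929%, 1.01% and 1.27% of all counts in mutant libraries 1 to 4, against 1.29%, 1.38%, 1.14% and 1.04% in wild-type libraries 1 to 4, so the groups overlapped. Mef2c itself had 1390, 1150, 1227 and 1423 counts in mutant libraries and 1207, 946, 791 and 728 in wild-type libraries. Its log2 fold change was 0.32 ± 0.105 (SE, adjusted p = 0.212, edgeR). A count over the whole gene is no check of a deletion of part of it. The exon scores of the authors' deposited table placed Mef2c at rank 1, with a log2 ratio of -3.30 at the exon that differed most. Cardiomyocyte markers were abundant in every library: all 12 fixed markers were detected and tested, and their summed level was 27307 to 35182 CPM (counts scaled to a common library size) in mutant libraries and 33279 to 45491 CPM in wild-type libraries.

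With both lanes together, OXPHOS subunit transcripts were at lower fitted levels in mutant outflow tracts across all 5 complexes, by a small amount that no single member carried past the threshold. This difference was seen in lane 1 alone, with a median log2 fold change of -0.64, and not in lane 2 alone, with a median of 0.06. In lane 2 the median of each complex was above 0. For the median member there, mutant library 3 lay below both wild-type libraries and mutant library 4 above both. The values that follow are from both lanes. All 80 members passed the expression filter, and in the edgeR quasi-likelihood test, with p-values adjusted by Benjamini-Hochberg over 14757 genes, 0 of 80 passed an adjusted p of 0.05 in either direction. In that comparison 0.942% of all tested genes were lower and 0.562% higher. At an unadjusted p under 0.05 there were 28 members, all with lower values in mutant, where 6.09% of all tested genes met the same mark in that direction. DESeq2 called 1 member, Cox7a1 (adjusted p = 0.0131), where it called 1.72% of all genes lower. The fitted log2 fold change of mutant over wild type was below 0 for 80 of 80 members, or 78 with scaling by library size alone, beside 51.3% of all tested genes. The members' median was -0.29, beside -0.006 over all tested genes, and the values ran from -1.21 for Cox7a1 to -0.01 for Ndufa9. In 0 of 80 members did the 4 mutant libraries all lie below the 4 wild-type libraries, which 3.27% of all tested genes did.

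**Figure D1:**
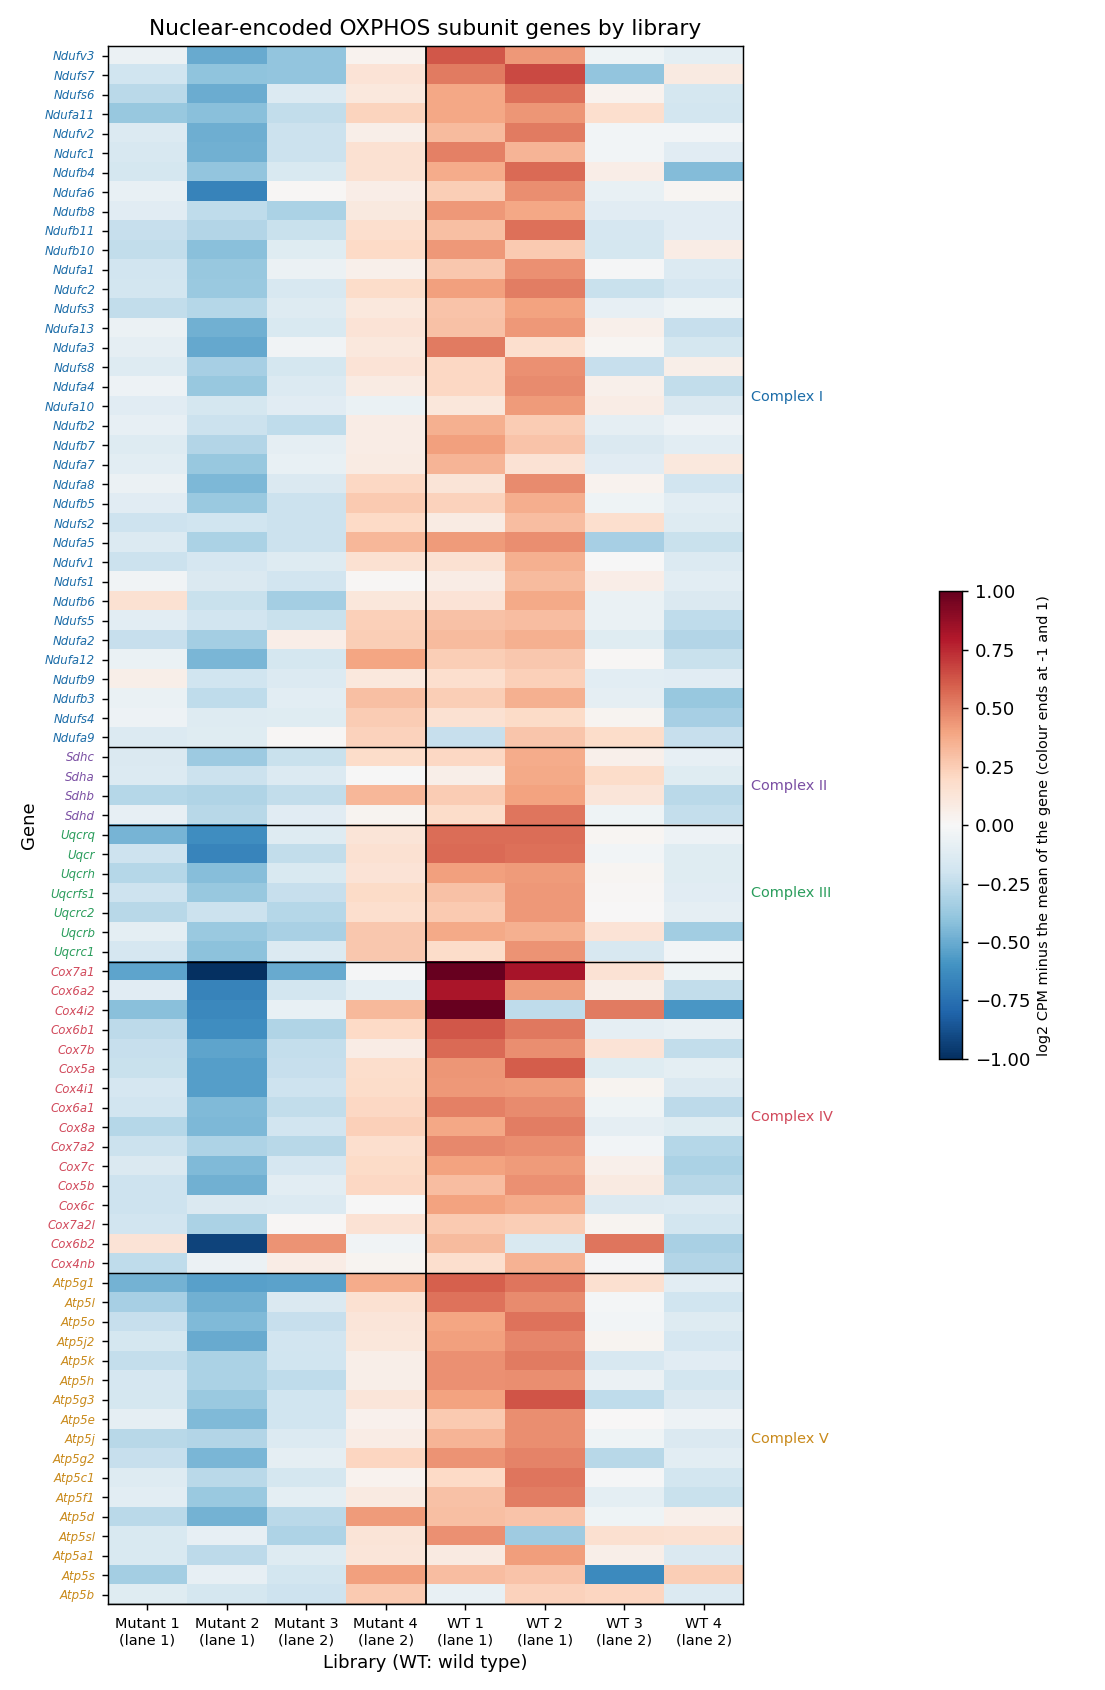
Heat map of the 80 members (rows, grouped by complex I to V and sorted by fold change) in the 4 mutant and 4 wild-type (WT) libraries (columns). Colour gives log2 CPM minus the mean of the gene over the 8 libraries. Wild-type libraries 1 and 2 are the highest and mutant library 2 the lowest for most members. Mutant library 4 lies above wild-type libraries 3 and 4 for most members.

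The members moved together from library to library, and the spread within a group was about as wide as the difference between groups. After each gene was centred on its mean, the median member stood at -0.17, -0.38, -0.18 and 0.14 on the log2 CPM scale in mutant libraries 1 to 4 and at 0.33, 0.43, -0.02 and -0.14 in the wild-type libraries. Mutant library 2 was the lowest of the 8 for 62 of 80 members, beside 16.2% of all tested genes. Wild-type libraries 1 and 2 were the 2 highest for 61 members, beside 9.55% of all tested genes. Mutant library 4 was above wild-type libraries 3 and 4 for 70 members, beside 37.2% of all tested genes. Mutant library 3 was below wild-type libraries 3 and 4 for 34 members, beside 31.8% of all tested genes.

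Complex I takes electrons from NADH. Its 7 tested core subunits, which hold the flavin and iron-sulfur clusters, and its 28 accessory subunits had medians of -0.26 and -0.25, and the lowest adjusted p among them was 0.296 (edgeR). Ndufv3, an accessory subunit of the NADH-oxidising arm, was the lowest of the complex. It had 42.1, 30.8, 33.3 and 44.8 CPM in the mutant libraries, against 67.4, 59.1, 42.5 and 40.9 CPM in the wild-type libraries, listed from library 1 to library 4 as in later sentences. Mutant libraries 1 and 4 reached the level of wild-type libraries 3 and 4, so the groups overlapped. The log2 fold change was -0.48 ± 0.177 (SE, adjusted p = 0.316, edgeR). Ndufs7, a core subunit that carries an iron-sulfur cluster, gave a similar difference of -0.48 ± 0.214 (SE, adjusted p = 0.436, edgeR). Ndufa9, an accessory subunit of the peripheral arm, was at the other end. It had 87.3, 88.2, 96.8 and 112.8 CPM in mutant libraries and 81.6, 116.2, 109.1 and 81.8 CPM in wild-type libraries, with no order between the groups. Ndufa4 was the most abundant member of the complex by name when counts were divided by exon length, at 161.9 CPM per kilobase ± 21.2 in mutant and 193.7 ± 40.2 in wild-type libraries (SD, n = 4 each). Its product was assigned to complex I and is now known as a complex IV component, and its log2 fold change was -0.26 ± 0.144 (SE, adjusted p = 0.560, edgeR).

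Complex II, the succinate dehydrogenase, is encoded in the nucleus in full. The values of its 4 members lay close together, from -0.27 for Sdhc to -0.25 for Sdhd, both membrane anchors. Sdhd was the most abundant per length, at 141.7 CPM per kilobase ± 12.4 in mutant and 168.1 ± 39.5 in wild-type libraries (SD, n = 4 each). Sdhd counts scaled to library size were 179.9, 156.7, 175.8 and 194.2 CPM in mutant libraries and 216.5, 275.4, 185.0 and 161.5 CPM in wild-type libraries. Wild-type libraries 3 and 4 lay among the mutant libraries.

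Complex III passes electrons from ubiquinol to cytochrome c. Its 7 members had a median of -0.31, and 5 of them were lower at an unadjusted p under 0.05, where 6.09% of all tested genes were. Uqcrq, a small subunit of the complex, had 44.3, 39.7, 55.9 and 67.0 CPM in mutant libraries and 90.4, 90.5, 62.1 and 59.2 CPM in wild-type libraries. Both lane 1 wild-type libraries were above every mutant library, while mutant library 4 was above both lane 2 wild-type libraries. The log2 fold change of Uqcrq was -0.55 ± 0.191 (SE, adjusted p = 0.283, edgeR). Uqcrc1, a core protein of the complex, was the least changed at -0.22 ± 0.156 (SE, adjusted p = 0.663, edgeR). Uqcrh, the hinge protein, was the most abundant per length, at 93.8 CPM per kilobase ± 16.2 in mutant and 121.3 ± 23.0 in wild-type libraries (SD, n = 4 each). Cyc1, the cytochrome c1 subunit, is outside the name rule, and its difference was -0.23 on the log2 scale (adjusted p = 0.582, edgeR).

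Complex V uses the proton gradient to make ATP. Its 17 members had a median of -0.33. Atp5b, the catalytic beta subunit of the F1 head, was the most abundant member of all per length, at 667.7 CPM per kilobase ± 107.0 in mutant and 723.0 ± 94.9 in wild-type libraries (SD, n = 4 each). It was also the least changed of the complex, at -0.11 ± 0.134 (SE, adjusted p = 0.817, edgeR). Atp5g1, which encodes the membrane-ring subunit c together with Atp5g2 and Atp5g3, had 183.7, 174.9, 176.7 and 330.1 CPM in mutant libraries and 386.8, 370.2, 285.3 and 238.0 CPM in wild-type libraries. Mutant libraries 1 to 3 lay below all wild-type libraries and mutant library 4 lay among them. The log2 fold change of Atp5g1 was -0.57 ± 0.234 (SE, adjusted p = 0.401, edgeR). Leaving out 1 library at a time gave -0.84 to -0.46, with adjusted p from 0.0222 to 0.699 (edgeR). The lowest value and lowest adjusted p came without mutant library 4, where 0.901% of all genes were lower. Atp5g2 and Atp5g3, whose mature protein is the same, stood at -0.30 and -0.35. Atp5s, at 382 summed counts the member just above the count minimum, is a coupling factor outside the enzyme itself and had a log2 fold change of -0.13 ± 0.263 (SE, adjusted p = 0.908, edgeR). Atp5sl and Cox4nb also matched by name alone, and without these 3 the median of the other 77 members was -0.29.

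Complex IV, cytochrome c oxidase, held the largest difference. Its 16 members had a median of -0.35, and the 10 ubiquitous subunits lay between -0.50 and -0.27. Cox4i1, the ubiquitous subunit 4 and the most abundant member of the complex per length, stood at 329.3 CPM per kilobase ± 68.7 in mutant and 425.2 ± 83.2 in wild-type libraries (SD, n = 4 each). Its gene overlaps Usp10 on the same strand in the table, so part of its reads could belong to that gene. Its log2 fold change was -0.37 ± 0.167 (SE, adjusted p = 0.435, edgeR). Cox6b1, a subunit on the intermembrane side, was the lowest ubiquitous subunit at -0.50 ± 0.207 (SE, adjusted p = 0.394, edgeR). Cox4nb, which is only a neighbour of the Cox4i1 gene and is now called Emc8, gave the highest value among the names of this complex, -0.12 ± 0.148 (SE, adjusted p = 0.828, edgeR). Cox7a2l, a factor that joins complexes into supercomplexes, stood at -0.17 ± 0.124 (SE, adjusted p = 0.667, edgeR).

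Muscle forms of complex IV subunits were then set against their ubiquitous partners. Cox7a1, the heart and skeletal muscle form of subunit 7a (chromosome 7, 30969190 to 30971047, plus strand, mm9), had 5.89, 3.56, 5.99 and 8.49 CPM in the mutant libraries, against 21.98, 15.4, 9.49 and 8.33 CPM in the wild-type libraries. Only wild-type library 4 was within the mutant range, just below mutant library 4. The log2 fold change was -1.21 ± 0.330 (SE, adjusted p = 0.127, edgeR). Leaving out 1 library at a time kept it between -1.42 and -0.88, with adjusted p from 0.0628 to 0.310 (edgeR). As a share of Cox7a1 plus Cox7a2 counts per kilobase, Cox7a1 made up 7.98%, 5.30%, 8.43% and 8.75% in mutant libraries and 16.6%, 12.4%, 10.97% and 11.4% in wild-type libraries. The mean share was 7.61% ± 1.57 in mutant libraries and 12.9% ± 2.59 in wild-type libraries (SD, n = 4 each). Each mutant library was below every wild-type library in this share, and the share was not tested. Cox7a2, the ubiquitous partner, had a log2 fold change of -0.34 ± 0.176 (SE, adjusted p = 0.527, edgeR).

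Cox8b, the heart and skeletal muscle form of subunit 8 (chromosome 7, 148084844 to 148086308, minus strand, mm9), was the name match just below the count minimum, with 67 summed counts. Its raw counts were 2, 2, 0 and 4 in mutant libraries and 30, 13, 9 and 7 in wild-type libraries, and a count of 0 in 1 library allows up to 3 counts there. In sum that was 8 against 59 counts, a ratio of 0.119 after scaling with an exact 95% counting interval of 0.0493 to 0.251. That interval covers counting error only. In edgeR without a count filter the gene passed (log2 fold change -2.90, adjusted p = 0.0200), where 0.65% of 24606 genes were lower. In 4 other fits it met the filter through its wild-type counts, with adjusted p from 0.0277 to 0.104 (edgeR), so those fits add no support. As a share of Cox8b plus Cox8a counts per kilobase, Cox8b made up 0.424%, 0.544%, 0% and 0.532% in mutant libraries and 3.24%, 1.94%, 2.03% and 1.62% in wild-type libraries, with no overlap. Cox8a, the ubiquitous partner, had a log2 fold change of -0.35 ± 0.177 (SE, adjusted p = 0.512, edgeR). The testis forms Cox7b2 and Cox8c, with 13 and 2 summed counts, were the other name matches below the minimum.

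Cox6a2, the third muscle form (chromosome 7, 135349128 to 135349830, minus strand, mm9), had 25.1, 17.0, 23.9 and 25.4 CPM in mutant libraries and 47.9, 36.6, 28.3 and 22.8 CPM in wild-type libraries. Wild-type library 4 lay within the mutant range. The log2 fold change was -0.57 ± 0.214 (SE, adjusted p = 0.322, edgeR), beside -0.35 ± 0.188 for Cox6a1, the ubiquitous partner (SE, adjusted p = 0.540, edgeR). Its share of the pair was 20.5% ± 2.21 in mutant libraries and 22.8% ± 1.95 in wild-type libraries (SD, n = 4 each), and the libraries overlapped. Cox4i2, known from lung, and Cox6b2, known from testis, also overlapped between the groups in their shares, and their log2 fold changes were -0.54 ± 0.363 and -0.15 ± 0.297 (SE, adjusted p = 0.642 and 0.906, edgeR). Without wild-type library 1 the log2 fold change was -0.36 for Cox6a2 and -0.13 for Cox4i2 (adjusted p = 0.644 and 0.949, edgeR), and leaving out each library in turn gave -0.72 to -0.36 for Cox6a2 and -0.76 to -0.13 for Cox4i2.

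**Figure D2:**
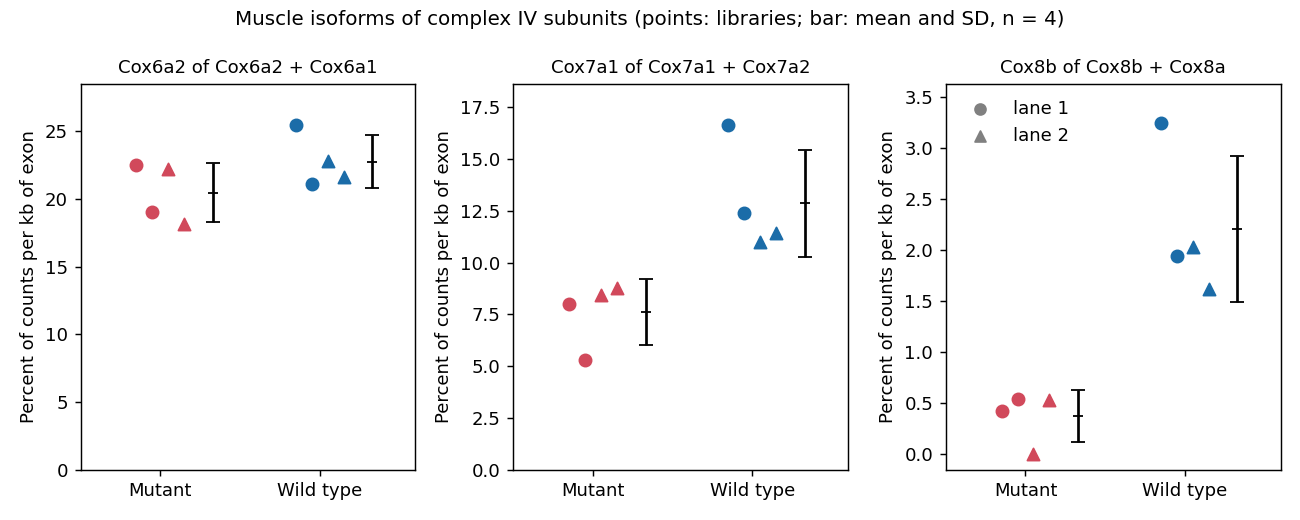
Share of the muscle form in the summed counts per kilobase of exon of a muscle and ubiquitous pair, in percent, for Cox6a2, Cox7a1 and Cox8b in mutant and wild-type libraries. Points are libraries with the lane as shape, and bars are the mean and SD (n = 4). The Cox7a1 and Cox8b shares are lower in each mutant library than in each wild-type library, and the Cox6a2 shares overlap.

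Promoters of Cox7a1, Cox8b and the ubiquitous partners are shown so that their upstream sequences can be compared. The windows are the 250 bases before the RefSeq start on GRCm38.p6, written 5′ to 3′ on the strand of the gene. The Cox7a1 window lies at chr7:30183921-30184170 (plus strand), Cox7a2 at chr9:79759854-79760103 (minus strand), Cox8b at chr7:140900447-140900696 (minus strand), Cox8a at chr19:7217617-7217866 (minus strand) and Cox6a1 at chr5:115348959-115349208 (minus strand). Capitals mark matches to the motif of nuclear respiratory factor 1 (NRF1), which is GCGCA, any 1 base and GCGC in a row, and to CCGGAAG, the core of ETS factors such as GABPA, on either strand.
Cox7a1: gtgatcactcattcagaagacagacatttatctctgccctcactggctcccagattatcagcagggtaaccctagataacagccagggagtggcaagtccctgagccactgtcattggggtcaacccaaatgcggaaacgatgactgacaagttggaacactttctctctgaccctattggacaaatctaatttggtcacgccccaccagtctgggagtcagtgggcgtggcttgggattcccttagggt
Cox7a2: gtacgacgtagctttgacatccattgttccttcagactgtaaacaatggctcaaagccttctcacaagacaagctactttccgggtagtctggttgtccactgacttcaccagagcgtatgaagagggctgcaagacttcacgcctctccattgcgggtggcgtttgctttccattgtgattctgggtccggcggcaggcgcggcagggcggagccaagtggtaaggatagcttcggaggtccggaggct
Cox8b: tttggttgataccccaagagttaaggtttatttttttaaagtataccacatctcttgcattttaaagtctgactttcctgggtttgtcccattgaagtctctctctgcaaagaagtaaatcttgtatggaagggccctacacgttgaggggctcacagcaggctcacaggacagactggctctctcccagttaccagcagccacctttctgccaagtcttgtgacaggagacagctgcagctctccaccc
Cox8a: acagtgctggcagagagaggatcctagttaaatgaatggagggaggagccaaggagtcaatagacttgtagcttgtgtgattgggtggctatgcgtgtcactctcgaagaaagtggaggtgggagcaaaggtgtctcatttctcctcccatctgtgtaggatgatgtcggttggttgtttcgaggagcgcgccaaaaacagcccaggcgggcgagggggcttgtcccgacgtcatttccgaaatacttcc
Cox6a1: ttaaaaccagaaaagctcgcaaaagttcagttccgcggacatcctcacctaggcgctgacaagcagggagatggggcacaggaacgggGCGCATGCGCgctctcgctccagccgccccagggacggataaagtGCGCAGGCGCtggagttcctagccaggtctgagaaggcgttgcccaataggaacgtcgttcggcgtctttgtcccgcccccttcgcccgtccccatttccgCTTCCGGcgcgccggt
Cox7a1 had 4 and Cox8b had 1 CG dinucleotides in these windows, while their ubiquitous partners had 14 for Cox7a2 and 11 for Cox8a, and Cox6a1 had 26. Cox6a2 was not matched to a window. Windows were matched for 66 of 80 members, with 72 windows in all. Their median was 14.5 CG dinucleotides, beside 6 over all 32851 windows in the table. The NRF1 motif was in 14 of 72 member windows (19.4%), beside 3.74% of all windows. The ETS core was in 16.7% of member windows and 6.91% of all windows. The half-site AAGGTCA of estrogen-related receptors was in 6.94% of member windows and 4.08% of all windows. AAGATGG, the motif of YY1, was in 2.78% of member windows and 4.49% of all windows. The MEF2 motif was in 0 of 72 member windows and 2.92% of all windows, which says only that its letters are not in these windows. Both strands were searched, and a match is a description of the sequence.

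Lane was where the members' pattern divided. In lane 1 alone, with 2 mutant and 2 wild-type libraries, 52 of 80 members fell and 0 rose, where 4.05% of all tested genes were lower and 1.58% higher (edgeR, adjusted p under 0.05). The median was -0.64, all 80 values were below 0, beside 49.9% of all tested genes, and in 76 members both mutant libraries lay below both wild-type libraries, beside 27.0% of all tested genes. Those that fell included all 10 ubiquitous complex IV subunits, 13 of 17 members of complex V, 6 of 7 of complex III, 3 of 4 of complex II and 17 of 36 of complex I. Cox7a1 fell by 1.98 ± 0.302, Uqcrq by 1.11 ± 0.130, Atp5g1 by 1.08 ± 0.119 and Cox6a2 by 1.01 ± 0.218 on the log2 scale in lane 1 (SE, adjusted p = 0.00633, 0.00200, 0.00120 and 0.0274, edgeR).

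In lane 2 alone 0 of 80 members passed in either direction, where 0.515% of all tested genes were lower and 0.271% higher, and 0 had an unadjusted p under 0.05, where 5.63% of all tested genes did and were lower (edgeR). The median was 0.06, with 62 values above 0 and 18 below, beside 50.5% of all tested genes below 0. Cox7a1 was the lowest at -0.31 ± 0.292 (SE, adjusted p = 0.880, edgeR), while Cox8b had 4 counts in the 2 mutant libraries and 16 in the 2 wild-type libraries, a scaled ratio of 0.181 with an exact 95% counting interval of 0.0439 to 0.560. Ndufa5 and Ndufa2, accessory subunits of complex I, were the highest at 0.36 each.

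The difference between the lanes was tested as a group by lane term. All 80 members had a higher fold change in lane 2 than in lane 1, beside 50.1% of all tested genes, with a median difference of 0.75. The term had an unadjusted p under 0.05 for 65 members, where 9.57% of all tested genes did in that direction, but 0 of 80 passed after adjustment (edgeR), where 1 gene of 14757 did (0.00678%). The lowest adjusted p was 0.0501, for Uqcrq, Atp5g2 and Atp5l (edgeR). Lane held 2 libraries of each group, so the effect of a lane and of its individual libraries cannot be told apart.

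**Figure D3:**
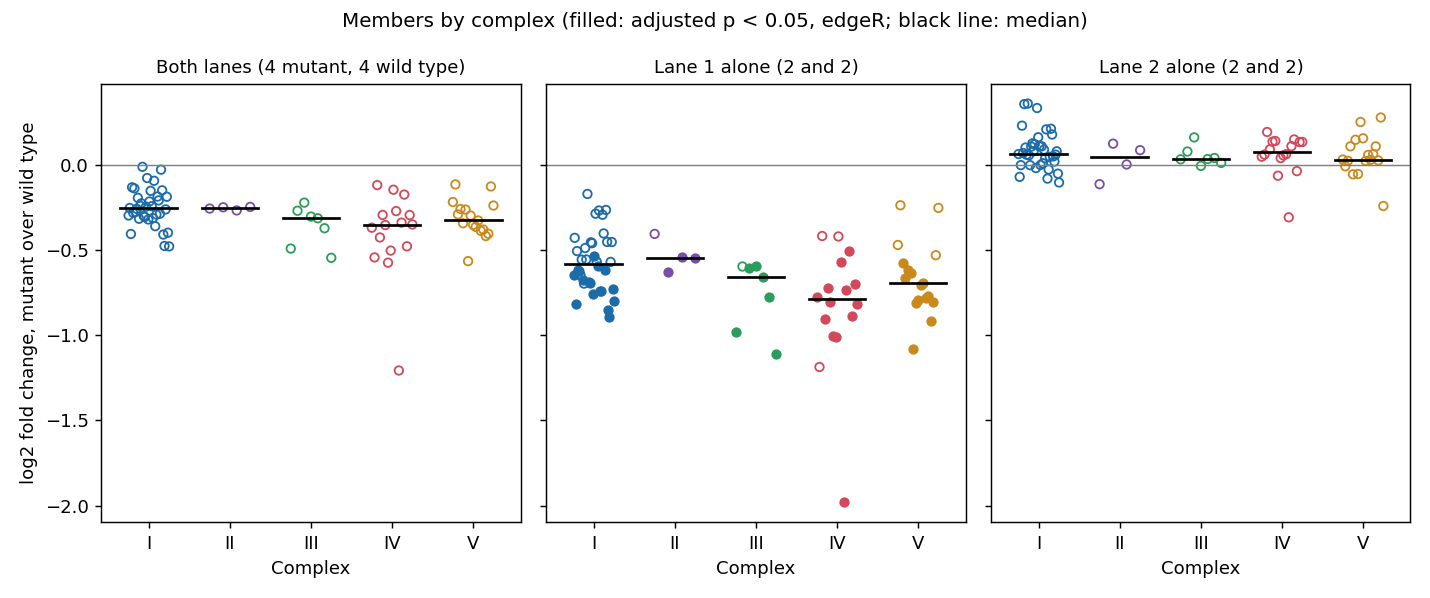
Log2 fold change of mutant over wild type (y axis) for each member by complex I to V (x axis), from both lanes together, lane 1 alone and lane 2 alone. Filled points have an adjusted p under 0.05 (edgeR) and black lines are medians. No point is filled with both lanes or in lane 2, whereas 52 are filled in lane 1.

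Other gene sets showed which parts of the transcriptome shared this library pattern. The 12 cardiomyocyte markers had centred medians of -0.12, -0.29, -0.22 and 0.08 in the mutant libraries, against 0.33, 0.43, -0.09 and -0.02 in the wild-type libraries. Of these markers 2 fell, Myh7 and Myl7, where 0.942% of all tested genes were lower. Myh7 and Myl7 encode a ventricular and slow myosin heavy chain and an atrial myosin light chain. Their log2 fold changes were -0.48 and -0.97 (adjusted p = 0.0325 and 0.00309, edgeR). The median of the 12 markers was -0.30, with 11 values below 0, beside 51.3% of all tested genes. It was -0.53 in lane 1 and 0.16 in lane 2. Tnnt2, Ryr2, Myh6 and Actc1 stood at 0.07, -0.006, -0.025 and -0.06 with both lanes. With the mean marker level as a covariate the members' median was -0.01 and 42 of 80 values were below 0. That mean included the 2 called genes and Nppa, which is also a chamber marker. Nppa had 8, 12, 13 and 346 counts in mutant libraries and 185, 459, 32 and 57 in wild-type libraries. Other sets with a similar library pattern were not tried as a covariate, so this fit does not single out cardiomyocytes. In whole tissue, fewer cardiomyocytes and less RNA per cardiomyocyte cannot be told apart. The 8 chamber myocardium markers, 1 of which is also on the cardiomyocyte list, had a summed level of 433.1 to 1224 CPM in mutant and 991.1 to 1901 CPM in wild-type libraries, with mutant library 4 the highest mutant library and wild-type library 2 the highest of all. Myl3, a ventricular and slow myosin light chain on the chamber list, fell by 1.56 on the log2 scale (adjusted p = 0.0325, edgeR). The part of both lists in the members' values was not tested beyond that covariate. Without mutant library 4 and wild-type library 2 the members' median was -0.30, and 2 members passed, Atp5g1 and Atp5d (adjusted p = 0.0352 and 0.0481, edgeR), where 1.18% of all genes were lower.

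Markers of other cell types differed in direction. The 5 smooth muscle, 8 endothelial, 6 tested epicardial and 3 tested neuronal markers had medians of 0.08, 0.24, 0.48 and 0.14. Their medians were -0.20, 0.38, 0.08 and 0.44 in lane 1 and 0.23, -0.03, 1.04 and -0.17 in lane 2. The 3 tested neural crest, 3 tested epithelial, 7 erythroid and 2 tested leukocyte markers had medians of -0.23, -0.30, -0.40 and -0.57. The epithelial list summed to 154.7 CPM in wild-type library 4 and to 72.5 to 103.9 CPM in the other libraries. Its untested Epcam and Cdh1 had 113 and 271 counts in wild-type library 4, and at most 5 and 27 in any other library. In lane 1 the neural crest, epithelial, erythroid and leukocyte medians were -0.41, -0.26, 0.13 and -0.01. In lane 2 they were -0.30, -0.29, -0.67 and -0.93. Of these lists the endothelial receptor Tek and the retinoic acid synthesising enzyme Aldh1a2, on the epicardial list, were higher, with log2 fold changes of 0.74 and 1.25 (adjusted p = 0.00130 and 0.0361, edgeR). The 2 tested skeletal muscle markers, Meox1 and Mylpf, had a median of -1.64 but were unlike each other. Meox1 had 352, 447, 484 and 338 counts in mutant libraries and 608, 101, 653 and 292 counts in wild-type libraries. Its log2 fold change was -0.18 (adjusted p = 0.938, edgeR). Mylpf, a fast skeletal myosin light chain on that list, had 5, 7, 20 and 22 counts in mutant libraries and 129, 168, 54 and 53 counts in wild-type libraries, with no overlap. It fell by 3.10 on the log2 scale (adjusted p = 0.0103, edgeR), while the defining markers Pax7, Myf5 and Myod1 were at 0 in all 8 libraries. Pax3 and Myog, also on that list, had at most 3 counts in any library. The hepatic and yolk sac markers summed to 11.9 to 60.6 CPM in mutant and 2.05 to 10.6 CPM in wild-type libraries, with no overlap. Of these, 0 of the 3 tested passed, and 3 were higher at an unadjusted p under 0.05, where 5.27% of all tested genes were (edgeR). The part of these lists in the members' values was not tested.

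Among genes of related function, 0 members of any pathway list passed with both lanes (edgeR). The 81 tested cytosolic ribosomal protein genes had a median of -0.21, with -0.59 in lane 1 and 0.16 in lane 2, and the 72 mitochondrial ribosomal protein genes had -0.19, with -0.43 in lane 1 and 0.06 in lane 2. The 18 genes of the citric acid cycle and pyruvate dehydrogenase had -0.19, with -0.42 in lane 1 and 0.02 in lane 2, and the 27 tested OXPHOS assembly factors had -0.15, with -0.25 in lane 1 and -0.03 in lane 2. Of these lists 3 of 81, 9 of 72, 3 of 18 and 0 of 27 genes were lower at an unadjusted p under 0.05, where 6.09% of all tested genes were. The 7 further tested genes for subunits and associated proteins that the name rule misses had a median of -0.24. Of these 7, 3 were lower at an unadjusted p under 0.05 (edgeR).

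Mitochondrially encoded subunits differed from the nuclear ones in their pattern over libraries. All 13 were below 0, with a median of -0.37, 9 had an unadjusted p under 0.05, where 6.09% of all tested genes did and were lower, and 0 passed (edgeR). Their median was -0.47 in lane 1 and -0.36 in lane 2. Their summed level was 12079, 11760, 11468 and 10323 CPM in the mutant libraries, against 17566, 14615, 16855 and 11039 CPM in the wild-type libraries. Mutant library 4, the highest mutant library for 77 of the 80 nuclear members, was the lowest of all for this sum, and wild-type library 4 was within the mutant range.

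Regulators of mitochondrial gene expression were closer to 0 as a group, with a median of -0.07 over 17 tested genes. Of these, 3 were lower at an unadjusted p under 0.05, where 6.09% of all tested genes were (edgeR). They were Ppargc1a, Ppargc1b and Esrrb. Esrrb was the lowest of the list, at -0.69 ± 0.223 (SE, adjusted p = 0.210, edgeR). The coactivators Ppargc1a and Ppargc1b had log2 fold changes of -0.33 ± 0.141 and -0.55 ± 0.156 (SE, adjusted p = 0.411 and 0.136, edgeR). Esrra, which binds the AAGGTCA half-site, stood at -0.09, Nrf1 at -0.08, Gabpa at -0.07 and Tfam, which packages and transcribes mitochondrial DNA, at -0.02, each with an adjusted p of at least 0.82 (edgeR).

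**Figure D4:**
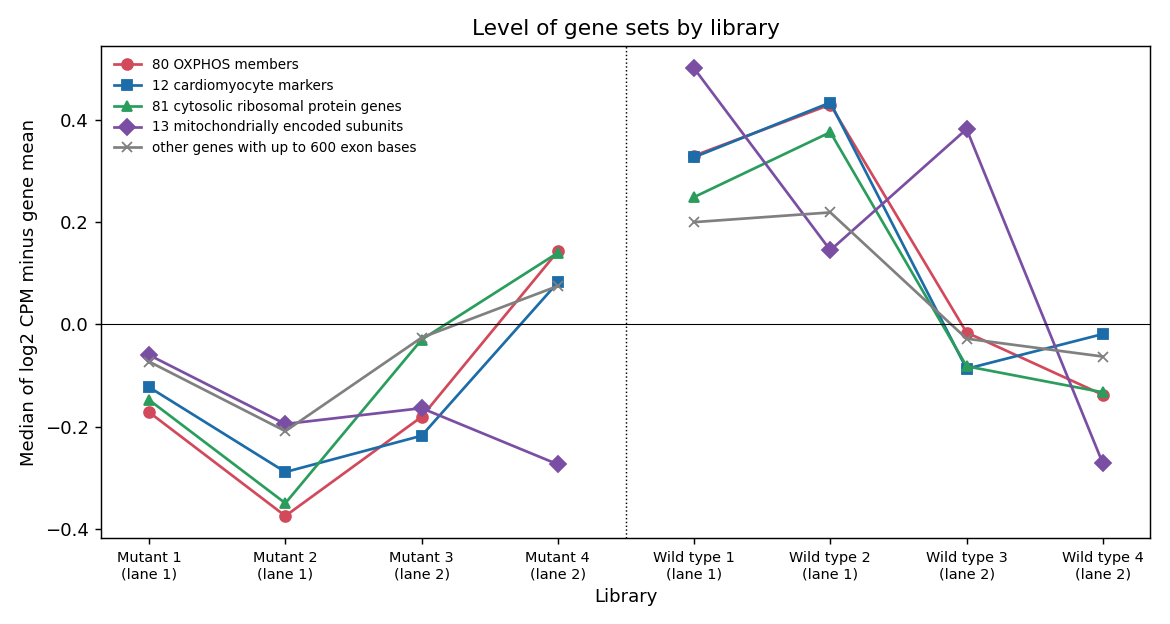
Median level of gene sets in each library (y axis, log2 CPM minus the mean of the gene) for the 4 mutant and 4 wild-type libraries (x axis). Nuclear OXPHOS members, cardiomyocyte markers, cytosolic ribosomal protein genes and other genes with a summed exon length of up to 600 bases follow each other. In these sets wild-type libraries 1 and 2 are highest. The 13 mitochondrially encoded subunits take a separate course in mutant library 4 and wild-type library 3.

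OXPHOS subunit genes are short, and short genes as a class had a like pattern of smaller size. The median summed exon length was 1098 bases for members and 3033 bases for all tested genes. Other tested genes of up to 600 bases had a median log2 fold change of -0.16, with -0.34 in lane 1 and 0.07 in lane 2, and those of 600 to 1000 bases had -0.12. Members in these classes stood at -0.30 each, and the 23 members of 1000 to 2000 bases at -0.31, where the 2590 other genes of that length stood at -0.03. The 8 members of 3000 to 5000 bases had a median of -0.25, against 0.02 for 3919 other genes. With the trend on length in each library removed, the members' median was -0.25, 75 of 80 values were below 0 and 0 passed (edgeR).

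**Figure D5:**
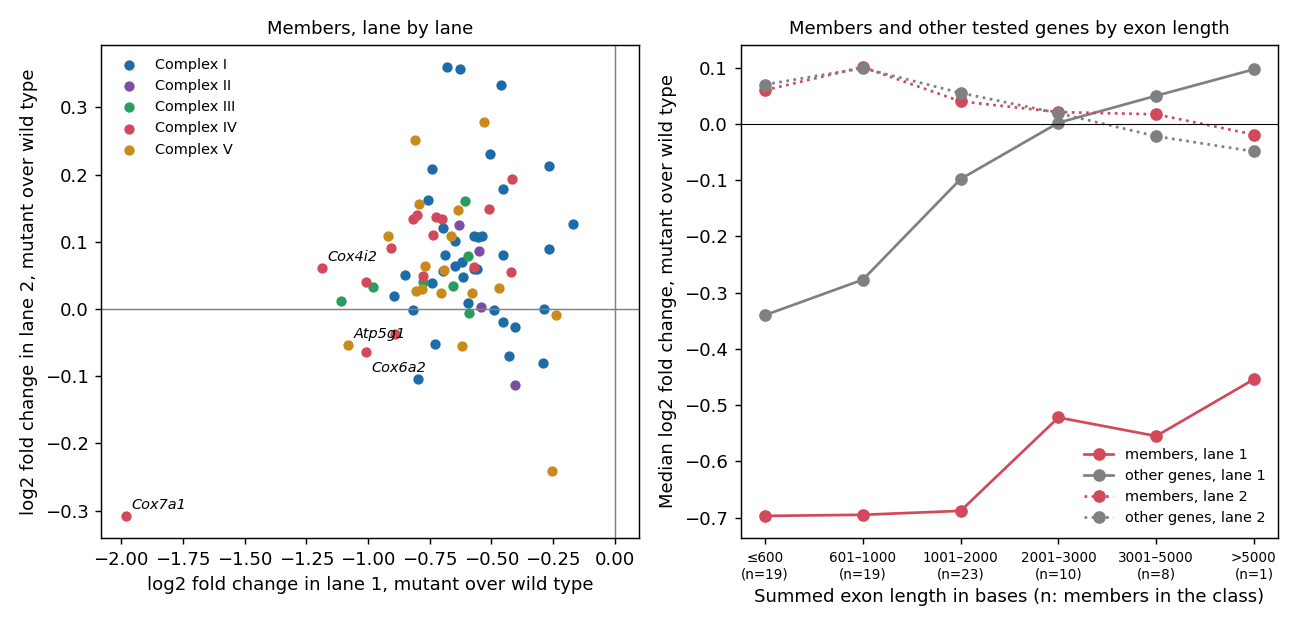
Left, log2 fold change of mutant over wild type of each member in lane 1 (x axis) and lane 2 (y axis), coloured by complex. Right, median log2 fold change (y axis) by class of summed exon length (x axis) for members and other tested genes in each lane. Each member lies left of 0 on the lane 1 axis, and in lane 1 members are below other genes in each length class, while in lane 2 the lines lie close together; the last class holds 1 member.

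The authors' deposited table, tested by their own method, called 11 of the 80 members at a false discovery rate under 0.05, each with a lower FPKM in mutant, where 1.10% of its 33495 genes were called with lower FPKM. The 11 were Atp5g1, Atp5l, Cox5a, Cox6a2, Cox6b1, Cox7a1, Cox7b, Ndufs7, Ndufv3, Uqcr and Uqcrq. Cox8b was also called in the authors' deposited table. Pooled FPKM of Cox7a1 was 17.1 in mutant and 39.5 in wild type in the authors' deposited table, and 78 of 80 members had a lower pooled FPKM in mutant. The authors' deposited modified log2 fold change was above 0 for 5 of the 11, so its sign did not follow the FPKM values. The exon score in the authors' deposited table was 0 for all 80 members, and 605 genes of the table had a score above 0.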

How the data were processed

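RNA was sequenced from 4 mutant and 4 wild-type outflow tracts. The authors deposited raw counts as whole numbers for each gene in each library. TopHat2 2.0.4 and the mm9 build are named in the submitters' processing notes. The sources used here do not give the counter, the annotation or whether strand was used, so overlapping genes could share reads; 20 of the name matches overlap another gene, 6 on the same strand. The authors also deposited normalized log2 values of each library, a pooled FPKM for mutant and for wild type, their own modified log2 fold change, and a score for the false discovery rate (minus 10 times its log10), per the file headers. The false discovery rates were recomputed from those scores. Columns of per-sample values left unmapped numbered 0.

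Counts were fitted over the whole table with edgeR 4.0.16 in R 4.3.3 (filterByExpr, TMM scaling, robust quasi-likelihood test, two-sided, group alone), with Benjamini-Hochberg adjustment over 14757 genes and a threshold of 0.05. CPM are counts scaled to the TMM library sizes. Log2 CPM used a prior count of 2. Levels per length used the deposited summed exon length. Shares, list medians and levels are descriptions without a test. Intervals are exact (Clopper-Pearson) at 95% and cover counting error only, since reads carried no molecular identifiers. A floor of 3 counts equals 0.272 to 0.420 CPM. The fit was tested on simulated data with known changes. Alternatives covered scaling, filter, test (DESeq2 1.42.0, limma 3.58.1), covariates, lane, length and left-out libraries. Members and gene lists were chosen with earlier results of these data known. Genes named were Mef2c, the complex IV isoforms and their partners, the lowest, highest and most abundant member of each complex, members at the count minimum, and called genes and regulators of the lists. Ndufs7, Ndufa5, Ndufa2, Atp5g2, Atp5g3, Atp5l, Atp5d, Ppargc1b and Gabpa were named after their values were seen. So were Esrrb, Meox1, Nppa, Pax3 and Myog. Promoters are from the RefSeq table on GRCm38.p6, a different build from mm9, matched by symbol. Python 3.11.15, pandas 2.3.3, scipy 1.17.1 and matplotlib 3.10.9 were used.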

Additional observations from a re-analysis of the deposited data

Results flagged for a closer look

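Within groups of 4 libraries, 1 library stood apart from the other 3 by Dixon's ratio in 3 of the 46 groups searched, where chance gives about 5%. Cox6a2 was low in mutant library 2, at 4.11 log2 CPM (17.0 CPM, where the other mutant libraries had 23.9 to 25.4 CPM). Atp5g1 was high in mutant library 4, at 8.37 log2 CPM (330.1 CPM, where the other mutant libraries had 174.9 to 183.7 CPM). Atp5s was low in wild-type library 3, at 1.82 log2 CPM (3.30 CPM, where the other wild-type libraries had 6.29 to 6.58 CPM).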

How the results depend on the processing

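The number of members lower in mutant was 0 except with DESeq2 (1), in lane 1 alone (52) and without mutant library 4 and wild-type library 2 (2), and leaving out 1 library at a time gave 0 to 1. The median was -0.641 in lane 1, 0.060 in lane 2 (18 values below 0) and -0.013 with the cardiomyocyte covariate (42 below 0). Leaving out 1 library gave medians of -0.404 to -0.202, with 77 to 80 below 0. In lane 2 the sign turned for Cox6a1 (0.140), Cox7a2 (0.110), Cox7a2l (0.149), Cox8a (0.135), Cox4i1 (0.048), Cox4i2 (0.061), Cox6b1 (0.040), Cox6b2 (0.056), Ndufa9 (0.126), Ndufa4 (0.060), Sdhc (0.003), Sdhd (0.086), Uqcrq (0.012), Uqcrc1 (0.161), Uqcrh (0.040), Cox4nb (0.193) and Atp5s (0.278). With the covariate it turned for Cox6a1 (0.038), Cox7a2 (0.027), Cox7a2l (0.038), Cox8a (0.034), Ndufa9 (0.136), Ndufa4 (0.027), Sdhd (0.056), Uqcrc1 (0.111), Cox4nb (0.077), Atp5b (0.038) and Atp5s (0.216). Ndufa9 also turned with library size scaling (0.042), limma-voom (0.002), the length trend (0.031), the length trend with the replicate block (0.042) and without mutant library 4 and wild-type library 2 (0.002). Leaving out 1 library gave -0.096 to 0.081 for Ndufa9 and -0.355 to 0.057 for Cox6b2. The same omissions moved, by over 1.5 times, Cox7a2l (-0.257 to -0.107), Ndufa4 (-0.368 to -0.134), Sdhd (-0.353 to -0.092), Uqcrc1 (-0.365 to -0.104), Cox4nb (-0.222 to -0.021), Atp5b (-0.233 to -0.060) and Atp5s (-0.317 to -0.031), none of them called. Atp5s turned without mutant library 1 and wild-type library 4 (0.021). The cause was not tested. The length trend, the length trend with the block and the omission of the 3 name-only members were chosen after seeing the data. Same-numbered replicates had correlations of -0.29 to 0.22, and differently numbered ones of -0.27 to 0.40. So few values neither show nor exclude a pairing by number, and litters are not given. With the replicate block 0 members passed, the median was -0.280, and 76 genes were called, against 222 without it. The low counts of Cox8b limit its ratio.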
